A study of Rattus norvegicus with 2 samples.

Results

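Thy1, Itgb1, Itga5, Kitlg, Cspg4 and Rgs5 are 6 genes by which bone marrow stromal cells and pericytes are commonly recognised. Each was represented by 1 row, chosen by its symbol, among the 2325 gene rows of the deposited table. The table compares 2 RNA sequencing libraries made from mesenchymal stem cells of Sprague-Dawley rat bone marrow (bmMSCs), stromal cells that grow attached to culture plastic. One library held untransfected cells at passage 3 to 5, which served as the negative control, and the other held cells of the same strain and passage range taken 10 days after Pdx1 and Ngn3 had been introduced together. Pdx1 and Ngn3 are transcription factors of pancreatic and endocrine development. With 1 library per condition, no test across replicates could be made. The control was untransfected rather than mock-transfected, and no day in culture is given for it. The act of transfection, the introduced factors and any difference in time in culture therefore cannot be told apart.

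Stromal cells of the marrow grip their matrix through integrins, receptors built from an alpha and a beta chain. The beta 1 chain pairs with many alpha chains, and alpha 5 beta 1 is the classical fibronectin receptor. The same cells carry the small glycosylphosphatidylinositol-anchored (GPI-anchored) protein Thy-1 (CD90), a routine marker for isolating them, and they make KIT ligand (stem cell factor), which maintains blood stem cells through the receptor KIT. Pericytes wrap small vessels. They are marked by the membrane proteoglycan NG2, the product of Cspg4, and by Rgs5, which switches off signals from G-protein-coupled receptors. Marrow stromal cells share many features with pericytes.

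RefSeq promoter sequences of the GRCr8 assembly, from 250 bases before to 50 bases after the annotated gene start, matched 5 of the 6 genes. They are shown for 2 genes with less RNA after transfection (Itga5 and Cspg4) and 2 with more (Kitlg and Rgs5), because both introduced proteins bind DNA. Capitals mark matches on either strand to TATAAA (the TATA box), to GGGCGG (the GC box), to the CCAAT box, to the homeodomain core TAAT recognised by proteins such as Pdx1, and to CANNTG (the E-box recognised by basic helix-loop-helix proteins such as Ngn3). Itga5 lies at chr7:136381256-136381555 on the minus strand, and Cspg4 at chr8:66160692-66160991, Kitlg at chr7:36782410-36782709 and Rgs5 at chr13:84380827-84381126 on the plus strand. Each is printed from 5′ to 3′ in the direction of its gene.
Itga5: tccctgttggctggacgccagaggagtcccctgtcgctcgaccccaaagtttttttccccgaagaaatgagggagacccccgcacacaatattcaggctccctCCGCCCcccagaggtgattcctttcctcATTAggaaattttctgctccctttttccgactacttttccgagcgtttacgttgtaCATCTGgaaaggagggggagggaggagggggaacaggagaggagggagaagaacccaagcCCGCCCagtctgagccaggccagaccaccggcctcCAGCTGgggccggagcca
Cspg4: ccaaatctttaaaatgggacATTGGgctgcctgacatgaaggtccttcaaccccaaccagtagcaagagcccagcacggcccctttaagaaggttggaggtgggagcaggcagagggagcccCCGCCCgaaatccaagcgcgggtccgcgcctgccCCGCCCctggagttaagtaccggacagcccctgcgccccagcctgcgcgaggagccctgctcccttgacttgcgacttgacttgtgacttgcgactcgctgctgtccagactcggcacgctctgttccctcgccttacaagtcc
Kitlg: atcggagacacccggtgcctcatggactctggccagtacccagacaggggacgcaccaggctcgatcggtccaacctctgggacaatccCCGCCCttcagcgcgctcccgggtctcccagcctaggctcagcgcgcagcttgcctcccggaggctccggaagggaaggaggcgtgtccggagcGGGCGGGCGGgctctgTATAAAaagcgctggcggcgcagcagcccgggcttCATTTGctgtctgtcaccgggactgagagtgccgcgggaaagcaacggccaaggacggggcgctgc
Rgs5: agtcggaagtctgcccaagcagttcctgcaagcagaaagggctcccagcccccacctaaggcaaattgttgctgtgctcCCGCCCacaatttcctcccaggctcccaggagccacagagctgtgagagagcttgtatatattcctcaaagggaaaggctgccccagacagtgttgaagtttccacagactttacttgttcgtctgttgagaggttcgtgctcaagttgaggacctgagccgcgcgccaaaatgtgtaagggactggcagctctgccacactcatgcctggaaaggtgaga

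Of these windows, Itga5 alone had a TAAT match, read as its complement starting at -119 from the gene start, and it had 2 E-box matches, at -63 and 32. Kitlg had 1 E-box match, at -16, and a TATA box match at -51. Its 3 GC box matches included 2 that overlap each other. Neither TAAT nor CANNTG occurred in the windows of Cspg4, Rgs5 or Itgb1. Cspg4 had a CCAAT match at -230 and 2 GC boxes, Rgs5 had 1 GC box and Itgb1 4. The CArG box, bound by serum response factor at contractile genes, was not matched in any of the 5. Over all 33469 promoters of this length, 60.6% held TAAT, 72.1% CANNTG, 33.1% GGGCGG, 37.5% CCAAT, 14.2% TATAAA and 1.64% a CArG box. A match describes letters in a window and is not evidence of binding, and the windows were defined on another assembly than the rn4 build named for these libraries.

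Library totals, worked out from counts, gene lengths and RPKM (reads scaled by gene length and library size), came to 7800831 in untransfected and 7415094 in transfected cells. The 6 genes together took 51476 untransfected reads, or 0.660% (exact binomial 95% interval 0.654 to 0.666), and 23530 transfected reads, or 0.317% (0.313 to 0.321). Intervals here describe counting error alone, and copies made by PCR cannot be recognised without molecular identifiers. A gene was called higher or lower when its reads per library total differed at least 2-fold and the exact 95% interval of the ratio excluded 1. The authors had deposited a selection of genes. Its rows had an absolute log2 ratio of 1.00 or more and a false discovery rate, from their unnamed test, of up to 0.000996. Every row of this selection met the rule: 63.5% of rows were higher and 36.5% lower. Among the 6 genes, Kitlg and Rgs5 were higher and Thy1, Itgb1, Itga5 and Cspg4 were lower. The genes were chosen with earlier results known, so nothing is read from that split. Their median log2 ratio was -1.32, beside 1.24 over all rows. TMM and median-of-ratios scaling, both computed on these selected rows, shifted every log2 ratio by -0.78 and -1.20, which made each decrease larger and each increase smaller without turning any of the 6. RNA was measured, not protein at the cell surface, and in these bulk samples fewer cells of a type and less RNA per cell cannot be told apart.

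**Figure D1:**
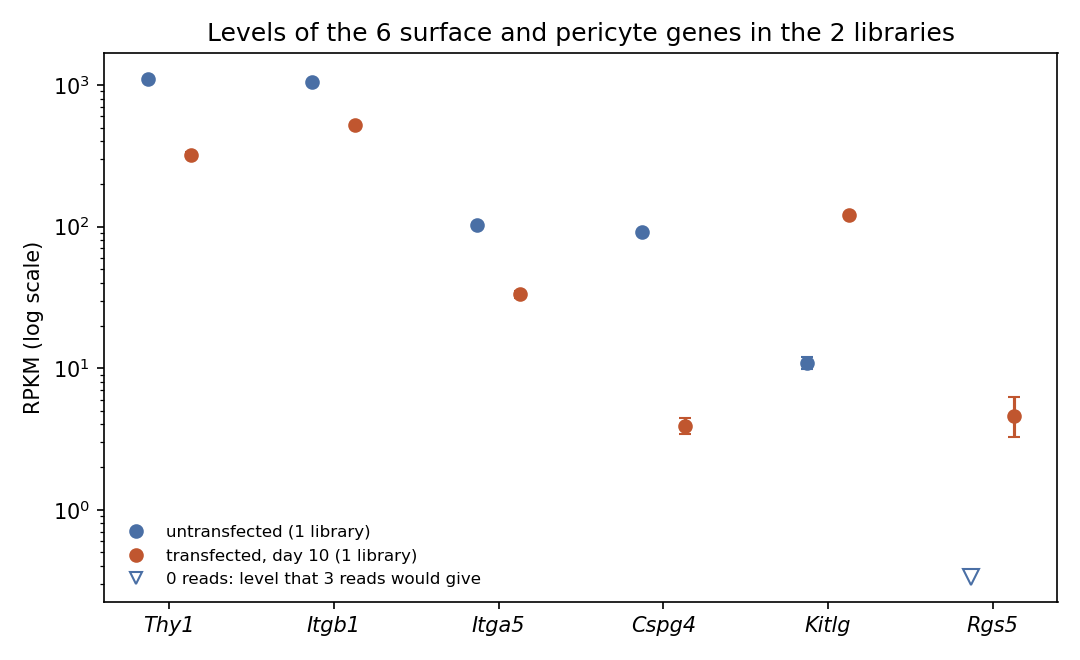
RPKM (log axis) of the 6 genes in the untransfected (blue) and transfected (orange) library. Bars are exact 95% Poisson intervals of the count, often smaller than the point, and the open triangle marks the level that 3 reads would give where Rgs5 had 0 reads. Thy1, Itgb1, Itga5 and Cspg4 lie lower after transfection, and Kitlg and Rgs5 higher.

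Thy1 and Itgb1 were the most abundant of the 6 genes, and both were lower after transfection. Thy1 had 11414 reads (1101 RPKM, interval 1081 to 1121) in untransfected and 3178 reads (322 RPKM, 311 to 334) in transfected cells, a 3.41-fold lower level (interval 3.28 to 3.55). By RPKM it ranked 11 among all rows in the untransfected library and 42 in the transfected library. Among the 849 lower rows, 56.5% changed less than Thy1, so its fold was close to the middle of that group, whose median was 3.10. The row rests on a cDNA clone of 1329 bases for which the table marks no coding region.

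Itgb1, the integrin chain shared by most fibronectin, collagen and laminin receptors, had 30354 and 14169 reads. Its level was 1057 RPKM (1045 to 1068) in untransfected and 519 RPKM (510 to 527) in transfected cells, 2.04-fold lower (1.996 to 2.078). This was among the smallest changes in the table: 25 of the 849 lower rows changed less. When the libraries were scaled by the listed reads alone, the fold was 1.89 and Itgb1 no longer met the 2-fold rule. With TMM and with median-of-ratios scaling it was 3.49-fold and 4.68-fold lower. Itgb1 went from rank 13 to rank 23 by RPKM, and in transfected cells it had the highest level of the 6 genes, 1.61 times that of Thy1.

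Itga5, the alpha chain that pairs with beta 1 to bind fibronectin, had 3501 and 1080 reads. Its level of 102 RPKM (98.8 to 106) in untransfected cells compared with 33.1 RPKM (31.2 to 35.2) in transfected cells, 3.08-fold lower (2.88 to 3.30). The Itga5 decrease was 1.51 times that of Itgb1 (95% interval 1.41 to 1.62 from the 4 counts). Itgb1 RNA per kilobase was 10.3 times that of Itga5 in untransfected cells and 15.7 times in transfected cells. Thy1 and Itga5 changed more alike: the Thy1 decrease was 1.11 times as large (1.02 to 1.20), an interval that reached close to equality.

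**Figure D2:**
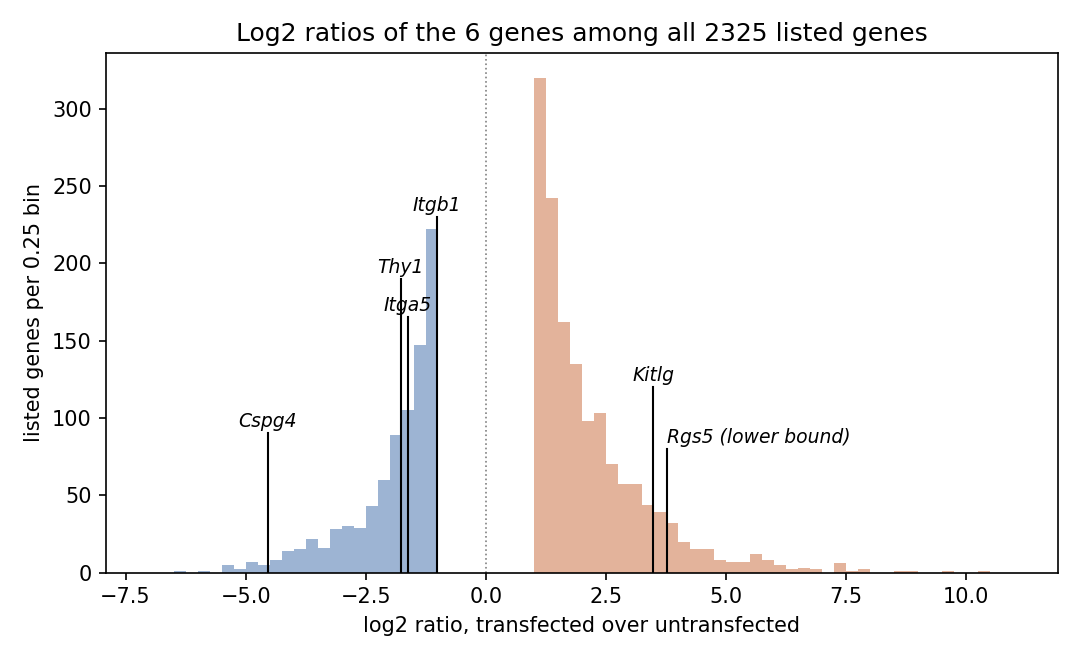
Log2 ratio of transfected over untransfected reads per library total for the 6 genes (black lines) on the histogram of all 2325 listed genes in bins of 0.25, lower genes in blue and higher genes in orange. The gap around 0 is the authors' selection. Itgb1 lies at its edge, Thy1 and Itga5 in the body of the lower genes, Cspg4 in the lower tail, and Kitlg and Rgs5 in the upper slope. Rgs5, labelled a lower bound, is drawn against a floor of 3 reads, and its exact interval began lower, at 10.6-fold.

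Cspg4 showed the widest drop of the 6 genes. The NG2 proteoglycan, a large single-pass membrane protein, had 5753 reads (91.3 RPKM, interval 89.0 to 93.7) in untransfected and 235 reads (3.93 RPKM, 3.44 to 4.46) in transfected cells, 23.3-fold lower (20.4 to 26.6). Its fold ranked 21 among the 849 lower rows. Its level in untransfected cells was 0.894 times that of Itga5, and in transfected cells 0.118 times. The decrease of Cspg4 was 6.82 times that of Thy1 (5.95 to 7.81) and 7.55 times that of Itga5 (6.52 to 8.75). Its cDNA of 8074 bases is 86.5% coding.

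Rgs5 went the other way. No read was counted in untransfected cells, which allows up to 0.335 RPKM at 3 reads, and 39 reads were counted in transfected cells (4.58 RPKM, 3.26 to 6.26). Taking 3 reads as the floor, Rgs5 was 13.7-fold higher, and the exact interval began at 10.6. It was 1 of 109 rows without an untransfected read. The authors' deposited table gives it a log2 ratio of 12.16, which comes from the 0.001 RPKM written in place of 0. In transfected cells the 2 pericyte genes met at a similar level, and their intervals overlapped. The Rgs5 row is a cDNA clone of 1148 bases with no coding region marked.

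Kitlg was also higher. It had 454 reads (10.9 RPKM, 9.88 to 11.9) in untransfected and 4829 reads (122 RPKM, 118 to 125) in transfected cells, 11.2-fold more (10.2 to 12.3), and 87.1% of the 1476 higher rows changed less. By RPKM it moved from rank 837 to rank 131. The row refers to transcript variant 1, a cDNA of 5360 bases of which 15.3% is coding. The membrane-bound and the released form of KIT ligand cannot be told apart. The receptor gene Kit was not analysed here.

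In untransfected cells the order by RPKM was Thy1, Itgb1, Itga5, Cspg4, Kitlg and Rgs5. No neighbouring intervals overlapped, although Thy1 and Itgb1 differed by 1.04 times only. In transfected cells the order was Itgb1, Thy1, Kitlg, Itga5, Rgs5 and Cspg4, and only the last 2 overlapped. Kitlg thus passed Cspg4 and Itga5, which had both been above it. Replicate spread is not known for either order.

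Integrin genes around Itgb1 and Itga5 were split. Of 27 integrin genes in the list, 8 were in the table, 3 higher and 5 lower, with a median log2 ratio of -1.20. Over all rows, 63.5% were higher and 36.5% lower. Itga4, the alpha chain that binds VCAM-1 and fibronectin, had 77 and 1009 reads and was 13.8-fold higher (10.9 to 17.6). Its level was 0.0259 times that of Itga5 in untransfected cells and 1.10 times in transfected cells, where the intervals of Itga4 (34.2 to 38.7 RPKM) and Itga5 overlapped. Vcam1, a ligand of alpha 4 integrins, was 9.62-fold higher (6.46 to 14.9) at 1.13 and 10.9 RPKM.

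Itga11, a collagen-binding partner of beta 1, was 2.60-fold lower (213 and 81.9 RPKM). Itga2, another collagen-binding chain, had 54 and 2 reads, a ratio of 25.7-fold lower with a counting interval of 6.77 to 217. Itgb3, the beta chain of a vitronectin receptor and not a partner of Itga5, had 166 and 19 reads (8.30-fold lower, 5.15 to 14.1). Itga10 had 2 and 29 reads (15.3-fold higher, 3.86 to 132), and with 1 added to each RPKM it no longer met the rule. Itgbl1, an integrin-like protein without the chain's membrane part, was 5.20-fold higher. Other rows, named after their values were seen, were a predicted locus similar to integrin alpha 8 (2.45-fold lower, 162 and 66.4 RPKM) and 3 rows without a symbol whose deposited best protein match was mouse integrin alpha 3. These 3 were 8.50-fold, 8.40-fold and 5.85-fold lower, and they may share a gene.

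Of 30 genes of the adhesion complex that ties integrin tails to actin, 11 were in the table, 10 lower and 1 higher (median log2 ratio -1.43), where 36.5% of all rows were lower. Flna, filamin A, was 2.59-fold lower, Actn1, an actin crosslinker, 3.03-fold and Vcl, vinculin, 3.62-fold. Fermt2, kindlin-2, which binds beta integrin tails to activate them, was 2.59-fold lower at 389 and 151 RPKM. The exception was Tln2, a talin, at 2.59 and 12.8 RPKM (4.95-fold higher, 4.20 to 5.86). Of 28 integrin ligands, most of them matrix proteins, 11 were in the table, 4 higher and 7 lower (median -1.14). The surface ligand Vcam1 was 1 of the 4 and the only 1 still higher with median-of-ratios scaling. Thbs1, thrombospondin 1, was 2.30-fold and Col4a1, a basement membrane collagen, 2.11-fold lower, and Nid2, a nidogen of basement membranes, 3.81-fold lower. Postn, periostin, was 4.52-fold, Thbs2, thrombospondin 2, 3.82-fold and Emilin1, an elastic fibre protein, 2.17-fold higher. The Emilin1 call was lost with TMM, and those of Postn, Thbs2 and Emilin1 with median-of-ratios scaling, under which Emilin1 also turned slightly lower.

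**Figure D3:**
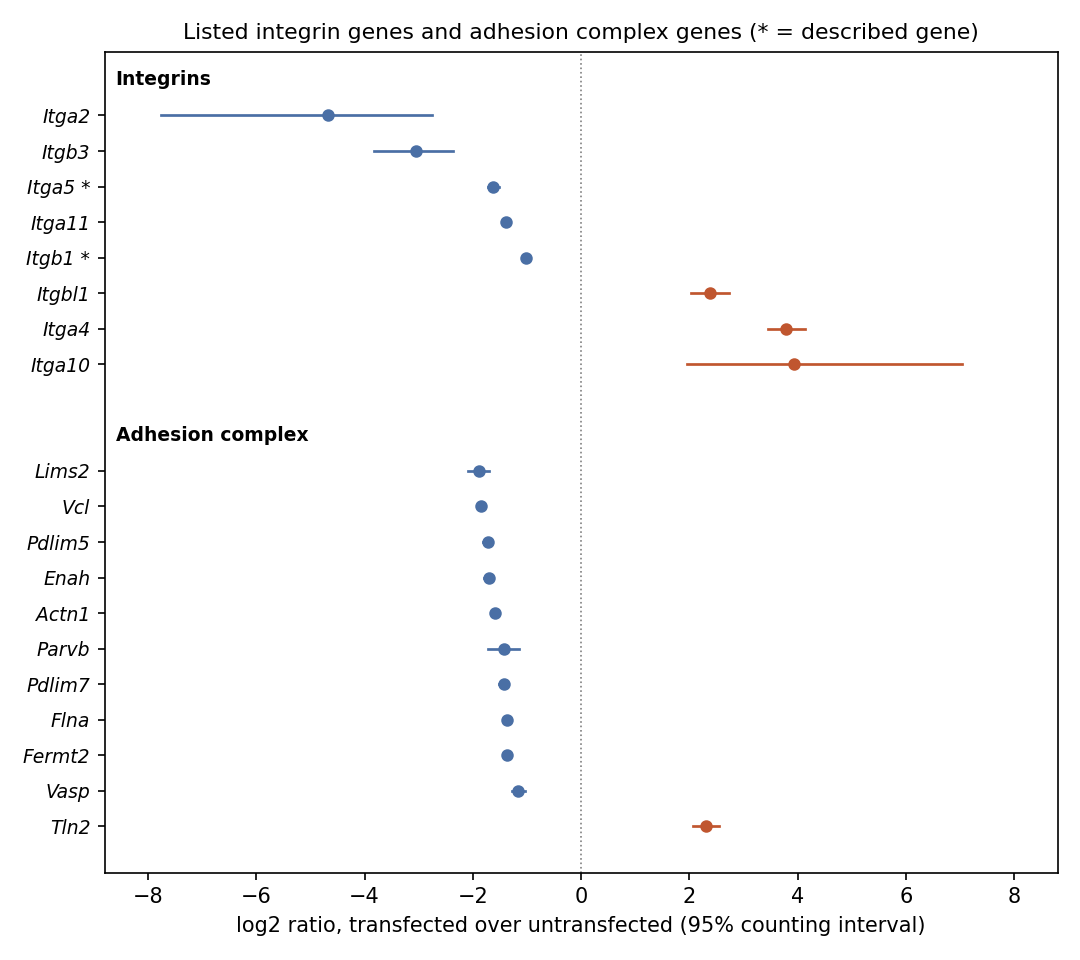
Log2 ratio of transfected over untransfected reads per library total for the 8 listed integrin genes and the 11 listed adhesion complex genes, with exact 95% counting intervals (orange higher, blue lower, asterisks for Itgb1 and Itga5). The adhesion complex genes lie below 0 except Tln2, whereas Itga4, Itga10 and Itgbl1 lie above 0.

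Among 25 surface markers of mesenchymal stem cells, 10 were in the table, 4 higher and 6 lower (median log2 ratio -1.20). Without Thy1, Itgb1 and Itga5, the split was 4 higher and 3 lower, beside 63.5% higher and 36.5% lower over all rows. Mcam (CD146), an adhesion molecule of stromal progenitors and pericytes, was 6.85-fold lower (5.96 to 7.91). Ly6e, a small GPI-anchored protein, was 13.7-fold higher (11.8 to 15.9). Pdgfra, a receptor of mesenchymal cells, was 2.58-fold higher, a call lost with TMM and with median-of-ratios scaling. Of 7 defining markers of these cells, 3 were in the table (Thy1, Itgb1 and Vcam1), and their summed level went from 2159 to 852 RPKM. Thy1 and Itgb1, both among the described genes, made up nearly all of each sum, whereas Vcam1 was higher (1.13 and 10.9 RPKM). The sum is therefore no separate check of the cell type label. The 7 markers that such cells should lack were not analysed here.

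Of 19 marrow niche factors and receptors, 4 were in the table and all 4 were higher, with a median log2 ratio of 2.48 (all rows: 63.5% higher). Beside Kitlg and Vcam1 these were Cxcl12, the chemokine that retains blood stem cells in marrow, at 23.2 and 65.4 RPKM (2.82-fold, 2.62 to 3.03), and Angpt1, angiopoietin 1, at 4.14 and 13.3 RPKM (3.23-fold, 2.40 to 4.38). Cxcl12 and Angpt1 fell short of 2-fold with TMM scaling (0.72 and 0.91 on the log2 scale) and with median-of-ratios scaling (0.29 and 0.49), whereas Kitlg and Vcam1 met the rule with each. Kitlg had the largest fold and the highest transfected level of the 4.

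Of 25 pericyte and mural cell markers, 12 were in the table, 7 higher and 5 lower, a split near the 63.5% of all rows that were higher. The median log2 ratio was 1.73, with Rgs4 and Rgs5 set against the floor of 3 reads. The lower genes were the more abundant ones in untransfected cells: Acta2, smooth muscle actin (4648 and 1298 RPKM), Cspg4, Mcam, the aminopeptidase Enpep (2.91-fold lower) and the transcription factor Foxs1 (3.74-fold lower). The higher genes were at most 4.73 RPKM in untransfected cells, the level of Cox4i2 (3.40-fold higher). That order follows in part from the ratio, which divides by the untransfected level. It did not hold in transfected cells. There Acta2 was still highest, but Foxs1 (1.66 RPKM), Cspg4 (3.93 RPKM) and Enpep (5.61 RPKM) lay below Cox4i2 (16.1 RPKM). Cox4i2 and Angpt1 lost their calls with TMM and with median-of-ratios scaling, which each left 5 mural markers higher. Notch3, a receptor of mural cells, had 4 and 30 reads (7.89-fold higher, 2.78 to 30.8), and with 1 added to each RPKM it no longer met the rule. Heyl, which Notch signalling induces, had 2 and 42 reads (22.1-fold higher, 5.75 to 188), and Ednra, an endothelin receptor, was 4.74-fold higher. Of 6 defining pericyte markers, Cspg4, Notch3 and Rgs5 were in the table, and their summed level went from 91.4 to 9.06 RPKM. Cspg4 supplied 91.3 RPKM of the first sum, and the other 2 markers were higher in transfected cells.

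Of 21 RGS genes, the family of Rgs5, 7 were in the table, 5 higher and 2 lower (median log2 ratio 2.09), or 3 higher with median-of-ratios scaling. That split is near the 63.5% of all rows that were higher. Rgs4, another inhibitor of G-protein signalling that is also found in pericytes, had 0 and 220 reads (10.2 RPKM). Against the same floor it was 77.1-fold higher, with an exact interval from 62.2. It was 2.22 times as abundant as Rgs5 per kilobase. Rgs2 was 4.26-fold, Rgs7 5.58-fold and Rgs3 2.63-fold higher. The calls of Rgs2 and Rgs3 were lost with median-of-ratios scaling, and that of Rgs3 also with TMM. Rgs16 had 248 and 11 reads (21.4-fold lower, 11.8 to 43.5) and Rgs8 52 and 14 reads (3.53-fold lower, 1.93 to 6.90). With 1 added to each RPKM, Rgs8 no longer met the rule.

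**Figure D4:**
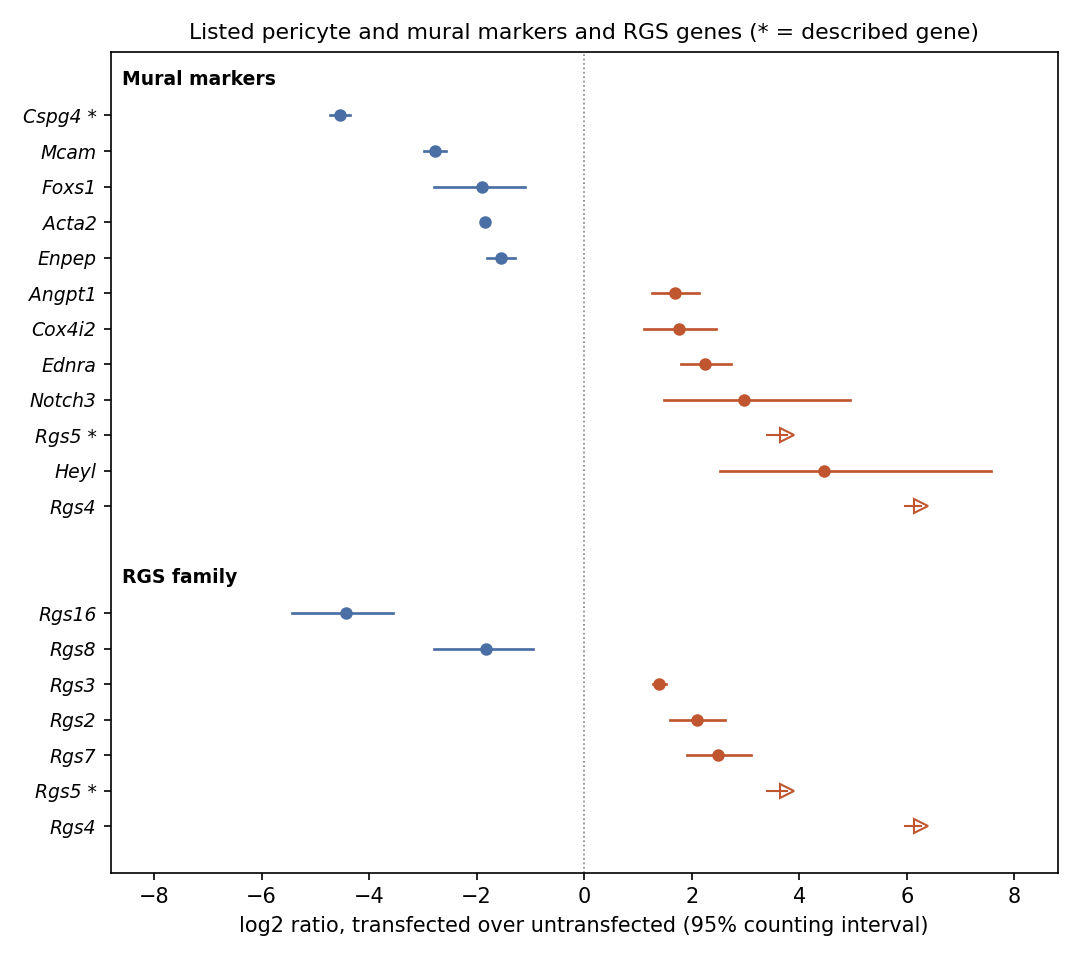
Log2 ratio of transfected over untransfected reads per library total for the 12 listed pericyte and mural markers and the 7 listed RGS genes, with exact 95% counting intervals (orange higher, blue lower, asterisks for Cspg4 and Rgs5). Open triangles are ratios against a floor of 3 reads, with a line from the exact lower limit. Cspg4 is the lowest mural marker, while Rgs5 and Rgs4 lie on the higher side.

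Markers of other cell types also differed between the libraries. For comparison, 63.5% of all rows were higher and 36.5% lower. Smooth muscle contractile genes were lower in 13 of 14 listed cases of 19, with a summed level of 16999 RPKM in untransfected cells against 5362 RPKM after transfection. Fibroblast markers were higher in 7 of 8 listed cases of 16 (697 and 2624 RPKM), or 3 of 8 with median-of-ratios scaling. Markers in the neuronal list, which includes Nes (0.949 and 5.28 RPKM), were higher in 5 of 5 listed cases of 15. Their summed level was 17.3 and 87.0 RPKM, and 4 of 5 were higher with median-of-ratios scaling. Of 26 blood cell markers 4 were listed, 2 higher and 2 lower (12.4 and 5.22 RPKM), with Cd4 at 0 in untransfected cells. Of 15 endothelial markers Egfl7 was listed, lower (5.30 and 1.57 RPKM), and of 12 glial markers Pdgfra was listed, higher (25.1 and 64.7 RPKM). The part of these cell types in the levels of the 6 genes was not tested.

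The genes most like each of the 6 in both libraries were taken by the distance between pairs of log2(RPKM + 1) values, over 2 libraries only. Nearest to Thy1 was Ctgf, connective tissue growth factor (1071 and 353 RPKM), followed by Myh9, a non-muscle myosin. Flna and Myl9, a myosin light chain, were nearest to Itgb1, and Col6a1, a collagen VI chain (112 and 30.7 RPKM), and Phldb2 to Itga5. Kitlg lay nearest to Bicc1 (9.85 and 103 RPKM) and the complement protease C1s. The closest to Cspg4 were Wisp2 and Wif1, a secreted Wnt inhibitor, at a larger distance (0.61 and 0.79) than for the other genes. Caly and Opcml, which had 0 and 36 and 0 and 103 reads, were nearest to Rgs5. In the deposited gene ontology, 4 of the 6 genes (Thy1, Itgb1, Itga5 and Kitlg) shared positive regulation of protein phosphorylation. That term was carried by 26 rows, 12 higher and 14 lower, where 63.5% of all rows were higher.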

How the data were processed

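Messenger RNA of 2 bmMSC cultures was selected with oligo(dT) beads, fragmented, copied from random hexamers and sequenced on an Illumina GA instrument, per the labels' protocols, which name no strand-marking step. The submitters' processing notes name rn4 as the genome build. For the aligner and the counter: not given in the sources used here. The authors deposited read counts per gene, RPKM computed from them (0.001 written for 0 reads), the log2 ratio of the RPKM values, and a p-value with a false discovery rate from an unnamed test. The authors' p-values compare 1 library with 1 library and were not used. Rows quote a representative cDNA, whose length is a deposited column.

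Ratios of counts per library total were computed with exact Clopper-Pearson intervals (scipy 1.17.1, numpy 2.4.6, pandas 2.3.3, Python 3.11.15), and levels with exact Poisson intervals. A count of 0 was set to a floor of 3 reads. The calculation was tested on simulated data. No replicates exist, so no count model was fitted. Alternatives were scaling by listed reads, by TMM (edgeR 4.0.16 in R 4.3.3) or by median of ratios, a minimum of 10 reads, log2(RPKM + 1), 99% intervals, a floor of 1 read and rows of rat genes alone. The 6 genes, the 16 gene lists and the naming rule were chosen with earlier results of these data known. The rule allowed all 6 genes, the 2 nearest to each, any listed gene of the integrin, RGS, mural, niche, GPI-anchored and adhesion lists, and the 3 most abundant per direction of other lists. Lists of other cell types are given by counts and summed levels, with few genes named. RefSeq (GRCr8) gave promoters, gene order and symbols, and matched 1630 rows by identifier.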

Additional observations from a re-analysis of the deposited data

How the results depend on the processing

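The direction of Thy1, Itgb1, Itga5, Kitlg, Cspg4 and Rgs5 was the same under all 8 alternatives, and the call changed only for Itgb1 with scaling by listed reads (-0.92 on the log2 scale). TMM, median-of-ratios and listed-read scaling, computed on genes selected for change, shifted every log2 ratio by -0.78, -1.20 and 0.10, so the median of the 6 genes was -2.10, -2.53 and -1.22. The higher share of all calls was 46.4% with TMM and 37.6% with median of ratios, against 63.5%, from 734 and 512 higher rows. With TMM the higher calls were 2 for niche factors, 1 for KIT-type receptors and growth factors and 0 for glial markers. With median of ratios they were 2, 1 and 0 for the same lists, 4 for GPI-anchored proteins, 3 for RGS genes, 1 for blood markers, 1 for proteoglycans, 3 for fibroblast markers and 1 for integrin ligands. The log2(RPKM + 1) scale left 1 lower RGS gene. The median of the KIT-type list turned above 0 with listed-read scaling (0.10) and log2(RPKM + 1) (0.014). Kitlg ranged down to 2.28 and Rgs5 to 2.48 on the log2 scale, the latter with log2(RPKM + 1), and Rgs5 was at 5.36 with a floor of 1 read. No paired analysis was possible because each condition has 1 library. Depth limits Rgs5 most, with 39 reads in all.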

Other observations

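Of 29 genes for GPI-anchored surface proteins other than Thy1, 12 were in the table, 7 higher and 5 lower (median log2 ratio 1.83), near the 63.5% of all rows that were higher. Cd55, a complement inhibitor, was 2.56-fold lower at 864 and 337 RPKM, the level nearest to that of Thy1 among these genes. Plaur, the urokinase receptor, was 3.72-fold lower and Sema7a, a semaphorin, 18.8-fold lower (13.4 to 27.0). Prnp, the prion protein, was 3.04-fold higher (151 and 459 RPKM) and Cdh13, a cadherin without a membrane-spanning part, 4.41-fold higher (60.8 and 268 RPKM). Both calls were lost with median-of-ratios scaling, and that of Prnp also with TMM.

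Of 26 proteoglycan genes, 9 were in the table, 4 higher and 5 lower including Cspg4 (median log2 ratio -1.12). Over all rows, 63.5% were higher and 36.5% lower. Dcn, decorin, was 4.27-fold, Vcan, versican, 3.80-fold and Lum, lumican, 8.76-fold higher, of which Dcn and Vcan lost their calls with median-of-ratios scaling. Gpc1, glypican 1, was 2.39-fold and Prelp 2.71-fold lower. No listed proteoglycan had a fold as large as that of Cspg4. Of 22 KIT-type receptors and growth factors 12 were in the table, 6 higher and 6 lower. The shares over all rows were 63.5% higher and 36.5% lower. Kitlg had the largest change among the 12 and alone stayed higher with TMM and with median-of-ratios scaling. Egfr, a growth factor receptor, was 2.36-fold higher, a call lost with both. Vegfa, the endothelial growth factor, was 4.52-fold, Hbegf, a ligand of Egfr, 3.15-fold and Fgf10 2.38-fold lower.

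Thy1 and Rgs5 each lay in a stretch of neighbouring genes listed in the same direction, an observation made after the values were seen and not tested. In the RefSeq gene order of GRCr8, 14 stretches of at least 3 consecutive protein-coding genes were listed in 1 direction, 9 higher and 5 lower. Of all rows, 63.5% were higher. One held Trim29, Pvrl1 (nectin 1) and Thy1, which were 3.51-fold, 2.35-fold and 3.41-fold lower. Another held Nuf2, a kinetochore gene (2.88-fold higher), Rgs5 and Rgs4. Annotated neighbours in both stretches did not overlap.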
